A study of Mus musculus with 6 samples.

Results

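The genes that make, take up, move and store cholesterol were examined in white fat taken from beside the epididymis, a visceral depot of male mice, in Eepd1 knockout animals (EKO) and wild-type animals (WT). The 29 genes were chosen by name, out of 32244 genes in the deposited table, and all 29 had enough counts to be tested. They comprise 9 enzymes of the mevalonate and isoprenoid steps, 10 enzymes that turn squalene into cholesterol, 4 regulators of the transcription factor SREBP2, and 6 genes of uptake, transport and storage. EKO and WT mice were both on the C57BL/6J background, and both received 3 months of high-fat feeding. Each genotype had 3 libraries of bulk mRNA, with totals of 17215072 to 18330206 counts per library. The labels do not say whether the replicates are separate animals, how old the mice were or in which cells Eepd1 is deleted, and the p-values therefore cover variation among these libraries alone, which may be technical.

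Cells build cholesterol from acetyl-CoA through mevalonate, farnesyl diphosphate and squalene. When sterols in the endoplasmic reticulum are scarce, SCAP escorts SREBP2 to the Golgi, where it is cleaved and then enters the nucleus to switch on the synthesis genes, while INSIG proteins hold the SCAP and SREBP2 pair back when sterols are plentiful. Adipocytes keep much of their cholesterol unesterified in the membrane and at the droplet surface, whereas macrophages that take up lipoproteins or dying cells pass cholesterol through the lysosome and store it as esters.

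Levels are given as CPM, counts divided by the library total and expressed at a common library size with TMM factors, and the values of a genotype are listed by replicate number. Eepd1, the targeted gene (ENSMUSG00000036611, chromosome 9), averaged 105 ± 52.9 CPM in EKO, against 247 ± 56.1 CPM in WT (SD, n = 3 each; log2 -1.23 ± 0.42, edgeR adjusted p = 0.106). Its levels were 152, 47.7 and 116 CPM in EKO, against 244, 304 and 192 CPM in WT. Every EKO library lay below every WT library, and the transcript was still counted in each EKO library. Which part of the gene was deleted is not known here. The adipocyte markers were present in every library, with a summed level over 12 genes of 11444, 4611 and 8825 CPM in EKO and 22608, 27050 and 17947 CPM in WT. These sums put the 6 libraries in the same order as Eepd1. Whether the Eepd1 difference follows the adipocyte content was not tested.

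The promoters below show the letters through which SREBP2 and its partner NF-Y are known to act, in 3 members whose differences did not share a direction. Hmgcs1 makes the precursor that is reduced to mevalonate, Msmo1 removes methyl groups from the sterol ring, and Srebf2 encodes SREBP2. Capitals mark the SREBP-type motif TCACNCCA and the NF-Y box CCAAT, on either strand, which appears as ATTGG when it lies on the opposite strand. The sequences are RefSeq's, build GRCm38.p6, given on the strand of the gene and 5′ to 3′. Positions count back from the RefSeq start: 200 to 31 bases before it for Hmgcs1 (plus strand), 181 to 152 for Msmo1 (minus strand) and 200 to 89 for Srebf2 (plus strand).
Hmgcs1, chr13:119690151-119690320: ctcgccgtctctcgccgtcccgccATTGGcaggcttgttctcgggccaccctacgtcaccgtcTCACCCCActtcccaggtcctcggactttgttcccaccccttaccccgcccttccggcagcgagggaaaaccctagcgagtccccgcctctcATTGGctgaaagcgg
Msmo1, chr8:64733730-64733759: attcTCACTCCAtccgcgcagCCAATgact
Srebf2, chr15:82147069-82147180: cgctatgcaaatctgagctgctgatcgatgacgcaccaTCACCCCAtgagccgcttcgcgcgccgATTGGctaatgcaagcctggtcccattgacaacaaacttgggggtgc

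A RefSeq promoter was matched for 24 of the 29 genes, and the 250 bases before each start were searched on both strands. CCAAT was found for 21 of the 24, against 37.5% of the 27025 genes with a promoter entry, and the 3 genes without it were Acat2, Lrp1 and Scap. The TCACNCCA motif was found for 3 of the 24, the genes printed above, against 4.20% of all genes. The E-box CACGTG, which SREBP proteins can also bind, was found for 6 of the 24, namely Dhcr7, Hsd17b7, Insig1, Nceh1, Sc5d and Scap, against 6.86% of all genes. None of these matches overlaps another within the printed stretches, and each is a match of letters and not a measured binding site. The printed Msmo1 stretch lies inside a longer first exon of GENCODE M21, so its place relative to the start depends on the annotation.

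The cholesterol ester genes Soat1 and Nceh1, the lysosomal transporter Npc1 and the receptor Lrp1 stood higher in EKO fat, and enzymes of the early mevalonate steps mostly lower, while the later enzymes were mixed. At an adjusted p of 0.05, edgeR's quasi-likelihood test called 0 of 16121 genes (0%) and no member, so all differences below are given as values and none is called. At an unadjusted p under 0.05, 10 of the 29 members were higher in EKO (34.5%) and 5 were lower (17.2%). Over all tested genes the shares were 18.9% higher and 13.8% lower (32.7% together), or 14.2% higher and 16.9% lower when scaled by library totals alone, where 10 members were higher and 7 lower. By sign alone 10 of the 29 log2 differences were negative, against 48.7% of all tested genes. Groups did not overlap for 10 members that were higher, against 25.1% of all tested genes, and for 6 that were lower, against 17.7%. DESeq2 called 7 members higher and 4 lower at an adjusted p under 0.05, against 10.9% and 10.1% of its genes. The authors' deposited table marks 5 members as significantly up, where 5.09% of genes are up, and 2 as significantly down, where 5.04% are down. In bulk tissue, fewer cells of a type and less RNA per cell cannot be told apart.

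**Figure D1:**
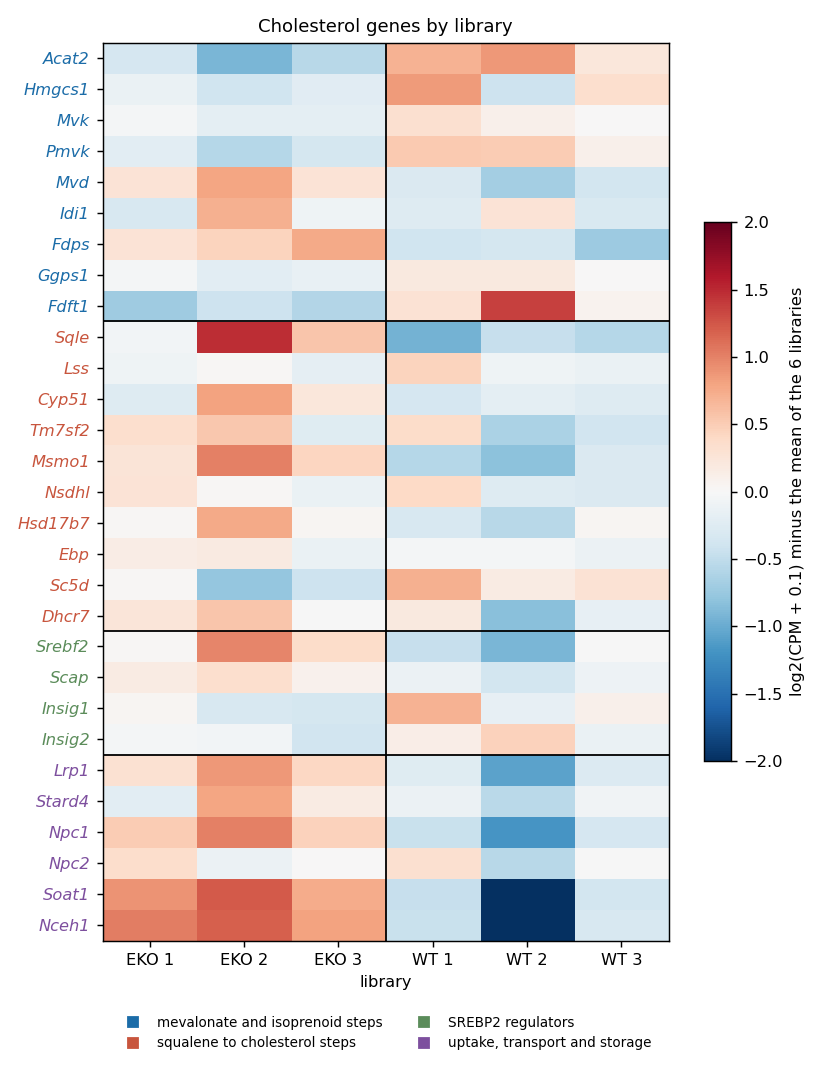
Level of each of the 29 cholesterol genes in each library, as log2(CPM + 0.1) minus the gene's mean over the 6 libraries (colour, limited to -2 to 2), with genes in rows by role and EKO libraries left of WT libraries. EKO replicate 2 is the highest library for 16 of the 29 genes and WT replicate 2 the lowest for 14.

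Acat2 and Fdft1, which stand at the start and the end of the mevalonate and isoprenoid steps, had the largest lower values of the list. Acat2, a cytosolic thiolase that joins acetyl-CoA units, lies at chr17:12942890-12960747 (GRCm38, minus strand) and had 22.5, 15.0 and 19.3 CPM in EKO, against 46.1, 52.0 and 33.3 CPM in WT. The groups were well apart, with means of 18.9 ± 3.74 and 43.8 ± 9.56 CPM (SD, n = 3 each), a 2.31-fold lower level in EKO and a log2 difference of -1.21 ± 0.22 (SE; edgeR adjusted p = 0.0628, DESeq2 adjusted p = 9.22e-05). The near-identical Acat3 had 117 counts over the 6 libraries against 3370 for Acat2, so a small share of its reads is uncertain.

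Fdft1 (chr14:63145150-63179578, minus strand), squalene synthase, which commits farnesyl diphosphate to sterols, had 25.7, 31.3 and 28.0 CPM in EKO libraries and 51.1, 108 and 43.9 CPM in WT libraries. WT replicate 2 alone was above 100 CPM, and the groups did not overlap. The log2 difference was -1.26 ± 0.35 (edgeR adjusted p = 0.0736), and -0.80 ± 0.13 without WT replicate 2 (edgeR adjusted p = 0.0454). Fdft1 shares 774 bases with Ctsb on the opposite strand, a lysosomal protease gene with 720981 counts against 5155 for Fdft1 over the 6 libraries. Without strand information its reads cannot be told apart there, and the value is uncertain.

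The kinases and the synthase between them were lower as well, by smaller amounts. Pmvk, the kinase that adds the outer phosphate to mevalonate phosphate, had 19.2, 15.0 and 17.5 CPM in EKO and 32.1, 31.6 and 23.9 CPM in WT, a 1.69-fold lower level without overlap (log2 -0.76 ± 0.17). Mvk, the kinase before it, had 21.6, 19.4 and 19.6 CPM in EKO and 28.0, 23.8 and 22.5 CPM in WT. These groups came close to touching, at 21.6 CPM in EKO replicate 1 against 22.5 CPM in WT replicate 3 (log2 -0.30 ± 0.14). Hmgcs1, whose promoter is printed above, had 155, 129 and 146 CPM in EKO and 308, 128 and 216 CPM in WT. WT replicate 2 was as low as the EKO libraries, so the groups overlapped, and the log2 difference of -0.60 ± 0.31 became -0.92 ± 0.19 without that library and -0.29 ± 0.27 without WT replicate 1, the highest. Ggps1, which makes geranylgeranyl diphosphate for protein prenylation in place of sterols, had 35.6, 31.6 and 33.1 CPM in EKO and 42.0, 42.0 and 37.0 CPM in WT, lower in every EKO library by a small amount (log2 -0.27 ± 0.11). Ggps1 shares 257 bases with Arid4b on the opposite strand. Cyp51 and Npc1, given below, share 166 and 305 bases with a protein-coding gene on the opposite strand. Without strand information a part of the reads of these genes is uncertain.

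The other enzymes of this stretch stood the other way or showed no separation. Mvd, the decarboxylase that yields isopentenyl diphosphate, had 16.2, 23.3 and 16.2 CPM in EKO and 11.0, 8.33 and 10.4 CPM in WT, higher in every EKO library (1.88-fold, log2 0.91 ± 0.22, edgeR adjusted p = 0.0654). Idi1, which isomerises that product, had 11.1, 22.8 and 13.2 CPM in EKO and 11.6, 16.8 and 11.2 CPM in WT, with full overlap and EKO replicate 2 highest. Fdps, the farnesyl diphosphate synthase, had 1.24, 1.41 and 1.77 CPM in EKO and 0.735, 0.762 and 0.565 CPM in WT. These are few counts for the gene, 11 to 31 per library, and 5 other annotated genes match its transcript at 95% identity or more over at least 40% of its length. Its counts are therefore uncertain, although its EKO values all lay above its WT values (log2 1.10 ± 0.32). Of the 9 genes, 6 were lower and 3 higher, at a median log2 difference of -0.30, beside 0.02 over all tested genes.

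The sterol stretch after squalene held the largest higher values among the enzymes. Sqle (chr15:59315077-59331192, plus strand), squalene epoxidase, the oxygen-dependent step that is known to limit flux after mevalonate, had 29.1, 83.9 and 44.5 CPM in EKO and 15.5, 21.9 and 20.3 CPM in WT. All EKO libraries lay above all WT libraries, and they differed widely among themselves. The means were 52.5 ± 28.3 and 19.3 ± 3.33 CPM (SD, n = 3 each), 2.72-fold higher in EKO (log2 1.44 ± 0.39, edgeR adjusted p = 0.0714, DESeq2 adjusted p = 0.00664), and the log2 difference was 0.92 ± 0.25 without EKO replicate 2. Msmo1 had 56.6, 96.2 and 64.0 CPM in EKO and 31.8, 26.7 and 38.9 CPM in WT. It was likewise apart in every library, at 72.3 ± 21.0 against 32.5 ± 6.09 CPM (SD, n = 3 each; log2 1.15 ± 0.24, edgeR adjusted p = 0.0628).

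**Figure D2:**
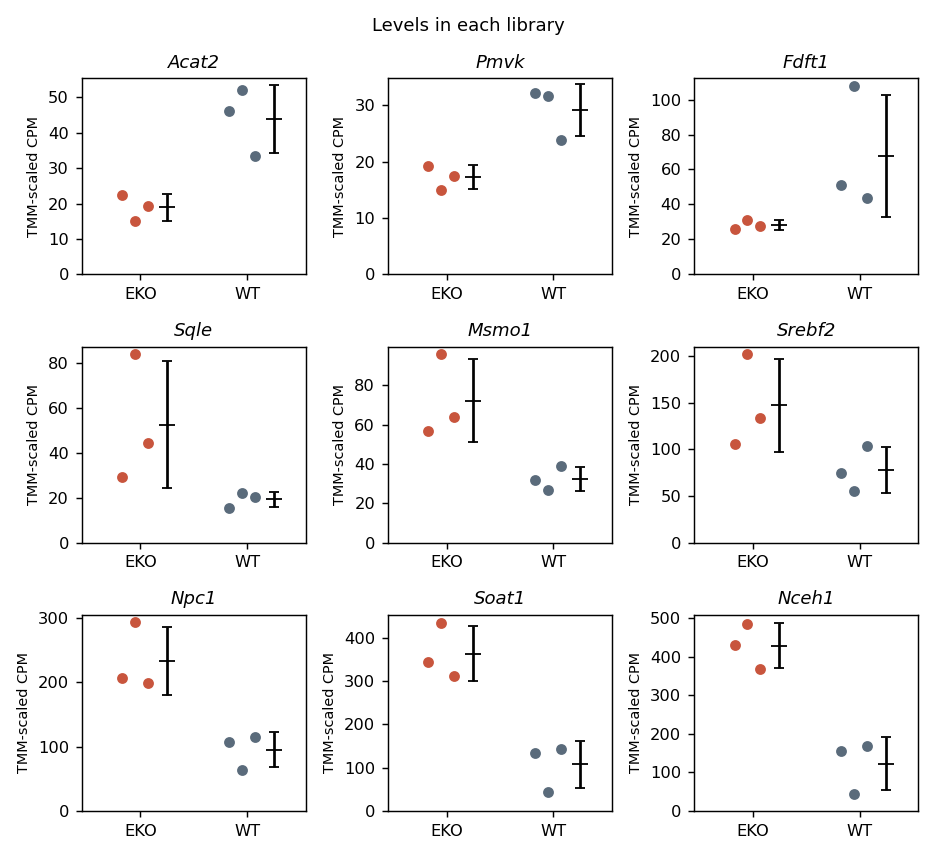
TMM-scaled CPM of 9 of the cholesterol genes in each EKO library (left) and each WT library (right), replicates 1 to 3 in order, with the mean and SD as a black bar beside each group. Acat2, Pmvk and Fdft1 are lower in all EKO libraries, and Sqle, Msmo1, Srebf2, Npc1, Soat1 and Nceh1 are higher.

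Sc5d, a late desaturase, differed in direction from Sqle and Msmo1. It had 119, 67.9 and 87.6 CPM in EKO and 190, 131 and 142 CPM in WT, lower in every EKO library (1.69-fold, log2 -0.76 ± 0.24, edgeR adjusted p = 0.0944). The remaining late enzymes overlapped between the genotypes. Cyp51, the lanosterol demethylase, had 35.4, 74.3 and 49.7 CPM in EKO and 33.5, 37.1 and 35.5 CPM in WT, and Hsd17b7, a sterone reductase, had 20.2, 33.7 and 20.4 CPM in EKO and 15.9, 13.5 and 20.3 CPM in WT. In both genes EKO replicate 2 stood apart from the other libraries, and their log2 differences of 0.59 and 0.58 were 0.25 and 0.27 without it. Dhcr7, the reductase of the last step in one branch, had 31.0, 38.3 and 26.1 CPM in EKO and 30.0, 14.6 and 23.2 CPM in WT, where WT replicate 2 was lowest.

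Lss, Nsdhl, Ebp and Tm7sf2 showed differences within their spread. Lss, which folds squalene epoxide into lanosterol, had 29.3, 31.6 and 27.4 CPM in EKO and 42.4, 29.2 and 28.4 CPM in WT, where WT replicate 1 alone was high. Nsdhl, a sterol dehydrogenase, had 35.0, 29.4 and 26.4 CPM in EKO and 38.2, 24.1 and 23.6 CPM in WT. Ebp, a sterol isomerase, had 41.6, 42.5 and 34.3 CPM in EKO and 36.3, 36.7 and 34.4 CPM in WT. Both of these sit on the X chromosome and differed by log2 0.08 ± 0.23 and 0.14 ± 0.12. Tm7sf2, a sterol reductase, had 6.90, 7.95 and 4.57 CPM in EKO and 7.07, 3.49 and 4.16 CPM in WT, and it shares 532 bases on the same strand with Vps51, so its counts are uncertain. Over the 10 late enzymes, 8 were higher and 2 lower, at a median log2 difference of 0.45, which was 0.22 without EKO replicate 2 and 0.17 without WT replicate 2.

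The 4 regulators did not share a direction. Srebf2 had 106, 203 and 134 CPM in EKO and 75.1, 55.2 and 103 CPM in WT. EKO replicate 1 and WT replicate 3 nearly met, and all EKO values were the higher ones, at 148 ± 49.9 against 77.9 ± 24.3 CPM (SD, n = 3 each; log2 0.92 ± 0.32, edgeR adjusted p = 0.106). Scap, the escort, had 52.7, 59.6 and 49.6 CPM in EKO and 43.2, 36.5 and 43.9 CPM in WT, a narrow separation (1.31-fold higher, log2 0.39 ± 0.12, edgeR adjusted p = 0.0909). Both retention factors had the lower mean in EKO, with overlap. Insig1, itself an SREBP target, had 161, 125 and 123 CPM in EKO and 254, 139 and 167 CPM in WT, and Insig2 had 55.6, 55.2 and 44.0 CPM in EKO and 62.9, 78.8 and 52.4 CPM in WT. The log2 differences were -0.46 ± 0.25 and -0.33 ± 0.18. The difference of Insig1 was -0.19 without WT replicate 1 and that of Insig2 -0.22 without WT replicate 2. That of Srebf2 was 0.60 ± 0.31 without EKO replicate 2 and 0.67 ± 0.30 without WT replicate 2. For Scap it was 0.25 ± 0.11 without WT replicate 2.

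**Figure D3:**
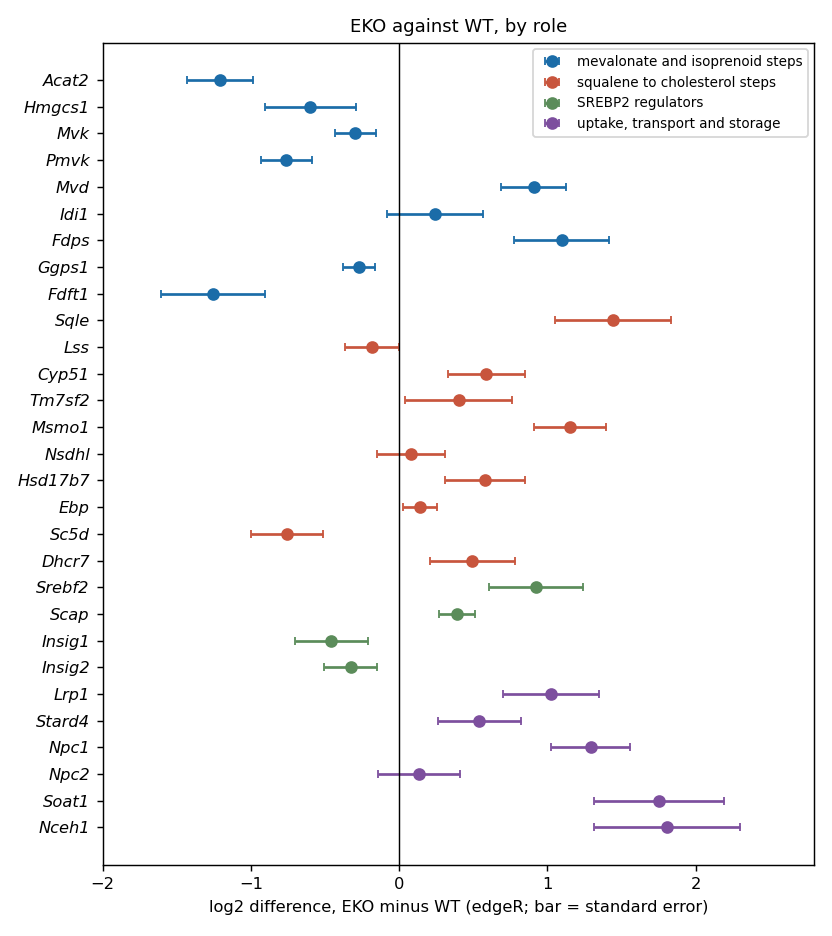
Log2 difference EKO minus WT of each gene with its standard error (edgeR quasi-likelihood fit, 3 libraries each), coloured by role. The uptake, transport and storage genes lie at 0.13 to 1.80, and the mevalonate and isoprenoid enzymes span -1.26 to 1.10.

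Soat1 and Nceh1, the cholesterol ester genes of the list, stood several-fold higher in EKO, while Lipe, outside the list and given below, was lower. Soat1 (chr1:156424525-156474331, minus strand), the acyltransferase that esterifies cholesterol for storage, had 345, 434 and 311 CPM in EKO and 135, 44.7 and 144 CPM in WT. Nceh1 (chr3:27182965-27284608, plus strand), a hydrolase that frees cholesterol from those esters in macrophages, had 430, 485 and 368 CPM in EKO and 155, 43.2 and 169 CPM in WT. In both genes the groups lay far apart, and WT replicate 2 was below the other WT libraries. Soat1 averaged 363 ± 63.5 in EKO and 108 ± 54.9 CPM in WT (SD, n = 3 each), 3.37-fold higher, and Nceh1 428 ± 58.2 and 123 ± 69.0 CPM, 3.49-fold higher. The log2 differences were 1.75 ± 0.44 and 1.80 ± 0.49 (edgeR adjusted p = 0.0669 and 0.0716). Without WT replicate 2 they were 1.33 ± 0.17 and 1.34 ± 0.16 (edgeR adjusted p = 0.0404 and 0.0386). Soat1, Nceh1 and Fdft1 were the 3 members that edgeR called without that library, where it called 443 of 16499 genes.

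The lysosomal exit proteins differed from each other. Npc1, the membrane transporter that releases cholesterol from the lysosome, had 206, 293 and 199 CPM in EKO and 106, 63.9 and 115 CPM in WT, 2.45-fold higher without overlap (log2 1.29 ± 0.27, edgeR adjusted p = 0.0628). Npc2, the soluble carrier that hands cholesterol to Npc1, had 1222, 881 and 966 CPM in EKO and 1195, 649 and 953 CPM in WT, with overlap. Its log2 difference was 0.13 ± 0.27, and -0.12 ± 0.21 without WT replicate 2. Lrp1, an endocytic receptor for remnant lipoproteins and many other ligands, had 3097, 4557 and 3321 CPM in EKO and 2118, 1198 and 2078 CPM in WT. All EKO libraries were above all WT libraries (2.03-fold, log2 1.02 ± 0.33, edgeR adjusted p = 0.0925). Stard4, a cytosolic sterol carrier and SREBP target, had 20.6, 41.3 and 26.8 CPM in EKO and 21.9, 16.4 and 22.6 CPM in WT, overlapping, with EKO replicate 2 highest. All 6 genes had positive log2 differences, at a median of 1.16, which was 0.88 without WT replicate 2.

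Set side by side, the medians of the log2 differences were -0.30 for the mevalonate and isoprenoid enzymes, 0.45 for the enzymes after squalene, 0.03 for the regulators and 1.16 for uptake, transport and storage, beside 0.02 for all 16121 tested genes. The 4 values describe small groups, and the difference between them was not tested. The regulators' median lies between 2 genes on each side of 0 and changed sign with the scaling, to -0.07 with library totals. Per kilobase of exon, Lrp1 and Npc2 had the highest level, at 206 and 188 CPM per kb in EKO and 101 and 171 in WT. Stard4, of the same role, had 5.30 CPM per kb in EKO and 3.64 in WT. Among the synthesis enzymes, Hmgcs1 had the highest level per kilobase at 31.2 CPM per kb in EKO and 47.3 in WT, and Fdps the lowest at 0.350 and 0.163. The length used joins all annotated exons of a gene, 17717 bases for Lrp1 and 5438 for Npc2. A single transcript can be shorter, so the order of genes per kilobase depends on the annotation.

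The libraries of a genotype were not alike, and the members did not share a single order. EKO replicate 2 was the highest library for 7 of the 10 enzymes after squalene and 5 of the 6 uptake, transport and storage genes, and the lowest for 4 of the 9 mevalonate and isoprenoid enzymes. WT replicate 2 was the lowest for all 6 uptake, transport and storage genes. The medians of the 6 genes, taken on log2 CPM after subtracting each gene's 6-library mean, were 0.43, 0.94 and 0.43 in EKO, against -0.34, -1.12 and -0.29 in WT. Macrophage markers followed the same order at the extremes, with medians of 0.77, 1.24 and 0.65 in EKO and -0.40, -1.75 and -0.32 in WT over 12 genes. Their summed level was 12962 to 19079 CPM in EKO and 1713 to 5102 CPM in WT. All 12 macrophage markers were higher in EKO, at a median log2 difference of 1.62. Adipocyte markers ran the other way, with medians of -0.32, -1.58 and -0.80 in EKO and 0.99, 1.04 and 0.54 in WT. All 12 adipocyte markers were lower in EKO, at a median log2 difference of -1.68. The mevalonate and isoprenoid enzymes stood at -0.14, -0.21 and -0.19 in EKO and at 0.28, 0.20 and 0.016 in WT. Endothelial markers were lower for 6 of 6 genes without overlap, at a median log2 difference of -0.91 and a summed level of 391 to 729 CPM in EKO and 970 to 1103 CPM in WT. Mesothelial markers were lower for 6 of 6 genes with overlap, at a median of -1.59 and a summed level of 32.8 to 173 CPM in EKO and 121 to 334 CPM in WT. Of 8 adipose progenitor markers 7 were higher by sign, 4 of them without overlap, at a median log2 difference of 0.28. The part of these cell types in the results was not tested.

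**Figure D4:**
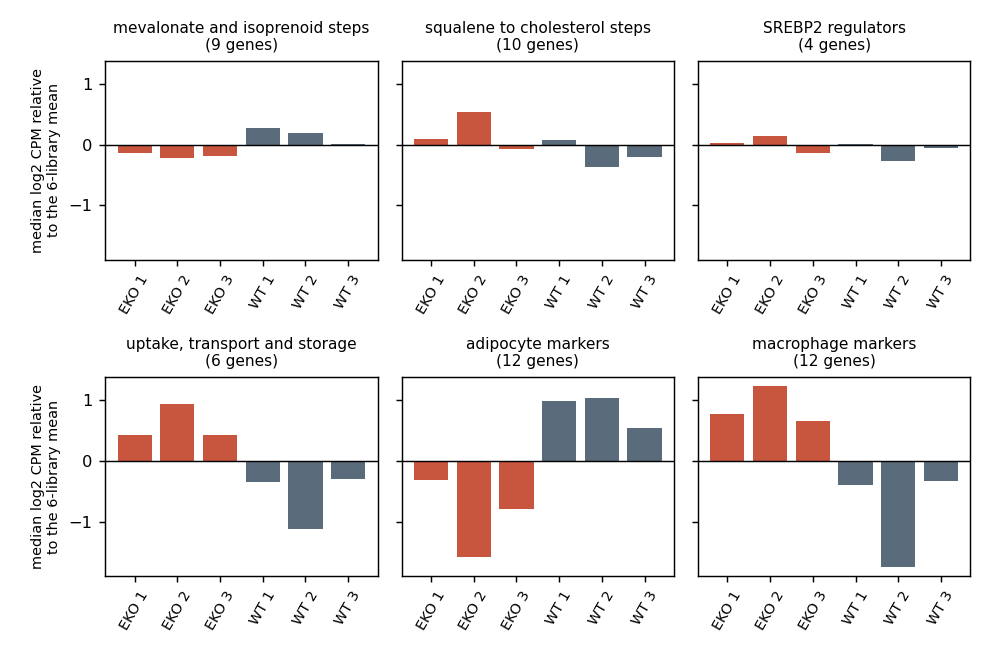
Median of each gene group in log2 CPM after subtracting each gene's 6-library mean, per library (bars; EKO left, WT right), for the 4 roles and for adipocyte and macrophage markers. The uptake, transport and storage genes reach 0.94 in EKO replicate 2 and -1.12 in WT replicate 2, the same libraries in which macrophage markers reach 1.24 and -1.75.

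Testis transcripts were highest in WT replicate 2, followed by EKO replicate 3 and then WT replicate 1. The summed level of 8 germ cell markers was 0.118, 0.834 and 125 CPM in EKO, against 28.8, 2449 and 2.31 CPM in WT. Prm2, a sperm protamine, had no count in EKO replicate 1, which limits it to below 0.177 CPM there, the level of 3 counts for counting error only. With WT replicate 2 and EKO replicate 3 left out, which keeps WT replicate 1 and its 129 counts of Prm2, 7 members were higher and 5 lower at an unadjusted p under 0.05. In that setting 12.6% of the 16007 tested genes were higher and 12.5% lower. The log2 differences of Fdft1, Sqle, Soat1 and Nceh1 were then -0.81, 1.58, 1.41 and 1.42. Steroidogenic cells use cholesterol heavily, and Hsd3b1 and Cyp17a1, 2 of the 6 markers listed for them, stood apart in single libraries. Hsd3b1, a steroid dehydrogenase, had 0, 0.0641 and 31.0 CPM in EKO, against 0, 2.56 and 0 CPM in WT, and Cyp17a1, a steroid hydroxylase, had 0, 0 and 8.98 CPM in EKO, against 0.113, 3.76 and 0 CPM in WT. EKO replicate 3 was thus the highest in both, followed by WT replicate 2, and neither gene passed the count filter. The 4 steroidogenic markers that did pass summed to 30.8 to 50.7 CPM in EKO and 31.9 to 50.9 CPM in WT, with Fdx1 at the highest level. Fdx1 had 20.8, 14.6 and 18.2 CPM in EKO, against 23.4, 37.0 and 21.5 CPM in WT. The medians of the 4 were -0.40, 0.12 and 0.35 in EKO and -0.53, 0.27 and 0.058 in WT. The sums hide opposite directions, as 2 of the 4 were higher in EKO and 2 lower, at log2 differences of -0.61 to 1.95. The part of these cells in the results was not tested. Hepatocyte markers varied within both genotypes, with medians of -1.86, -2.17 and 3.37 in EKO and 2.09, -2.19 and 1.24 in WT over 9 genes, and no order of the cholesterol genes was tested against them.

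**Figure D5:**
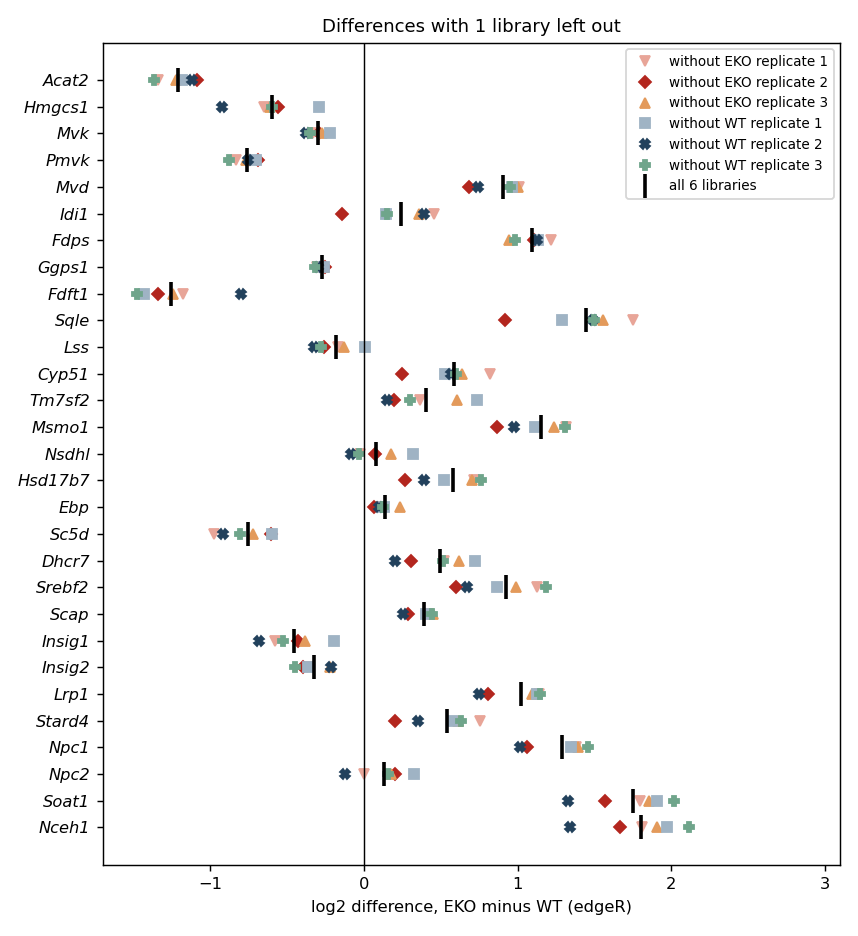
Log2 difference EKO minus WT of each gene with all 6 libraries (black bar) and with each library left out in turn (symbols; edgeR). Fdft1 moves from its value of -1.26 to -0.80 without WT replicate 2, and Sqle from 1.44 to 0.92 without EKO replicate 2.

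Of 51 tested genes that work beside the 29 in sterol metabolism, 13 were higher and 10 lower at an unadjusted p under 0.05 (25.5% and 19.6%, beside 18.9% and 13.8% of all genes), at a median log2 difference of -0.02. In SREBP processing and enzyme turnover 3 of 9 were higher and 1 lower. The lower gene was Srebf1, whose SREBP1 protein favours fatty acid synthesis. It had 171, 155 and 144 CPM in EKO and 317, 294 and 228 CPM in WT, the opposite direction to Srebf2 (log2 -0.83 ± 0.16, edgeR adjusted p = 0.0628). Fbxw7, a ubiquitin ligase subunit that targets nuclear SREBP, had 29.5, 28.1 and 28.5 CPM in EKO and 17.8, 22.8 and 19.7 CPM in WT.

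Genes that supply the pathway or branch from it were mixed. Aacs, which activates acetoacetate for sterol and fatty acid synthesis, had 56.7, 37.5 and 42.8 CPM in EKO and 109, 153 and 57.2 CPM in WT, lower in every EKO library (2.33-fold). Cyb5b, an outer mitochondrial membrane cytochrome, had 356, 281 and 313 CPM in EKO and 507, 436 and 371 CPM in WT. In that group of 6, 2 were lower and 0 higher. Among 10 prenylation, dolichol and ubiquinone genes 4 were higher and 1 lower. Rabggta, a subunit of the enzyme that prenylates Rab proteins, was 1.56-fold higher, and Coq2, of ubiquinone synthesis, 1.40-fold lower, both without overlap.

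Uptake and lysosomal release outside the 29 genes had 3 of 9 higher and 2 lower. Lamp2, a lysosomal membrane protein, had 672, 867 and 634 CPM in EKO and 420, 346 and 411 CPM in WT (log2 0.88 ± 0.18). Sort1, a sorting receptor, had 311, 294 and 249 CPM in EKO and 576, 659 and 424 CPM in WT (log2 -0.96 ± 0.20). Lipa, the lysosomal acid lipase that cleaves incoming cholesterol esters, was singled out after its values were seen. It had 1358, 2208 and 1364 CPM in EKO and 515, 189 and 612 CPM in WT, 3.74-fold higher, with WT replicate 2 lowest as for Soat1 and Nceh1.

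Sterol transfer genes had 2 of 11 higher and 3 lower. Stard3, a late endosomal sterol transfer protein, had 66.5, 72.2 and 64.0 CPM in EKO and 37.2, 23.5 and 38.6 CPM in WT (log2 1.03 ± 0.20, edgeR adjusted p = 0.0628), and Tspo, of the outer mitochondrial membrane, was 1.55-fold lower. Of 6 tested ester and oxysterol genes 1 was higher and 1 lower. Lipe, the hormone-sensitive lipase that also cleaves cholesterol esters in adipocytes, had 466, 170 and 295 CPM in EKO and 1053, 1085 and 783 CPM in WT. It was 3.14-fold lower in EKO, whereas Nceh1 was higher, and it is also 1 of the 12 adipocyte markers. Cyp7b1, an oxysterol hydroxylase, had 2.48, 5.71 and 3.09 CPM in EKO and 1.53, 1.69 and 1.49 CPM in WT.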

How the data were processed

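Bulk mRNA libraries of 3 EKO and 3 WT fat samples were grouped by the labels. The authors deposited 1 table of raw read counts per gene, per the file headers, together with their own mean signal over the 6 libraries, fold change (a ratio, EKO over WT), log2 fold change, p-value and adjusted p-value. The build is GRCm38, per the submitters' processing notes; no source used here names the aligner, the counting tool or its strand setting. The deposited mean signal matches counts scaled with DESeq2 size factors (median relative difference 2.79e-06), and deposited log2 values differ from a DESeq2 fit by a median of 1.61e-05. Deposited calls have an absolute log2 value of at least 1.

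Computed here: edgeR 4.0.16 quasi-likelihood F test (R 4.3.3) after filterByExpr and TMM, genotype as sole term, Benjamini-Hochberg adjusted p over 16121 genes. A standard error is the log2 difference divided by the square root of F. CPM are TMM-scaled; exon lengths are GENCODE M21 unions. Near copies were sought with blastn 2.17.0. The fits were tested on simulated data. Every pair of libraries differed beyond sampling noise, the closest being EKO replicates 1 and 3 with a chi-square of 21.9 per degree of freedom.

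Alternatives were DESeq2 1.42.0, limma-voom (limma 3.58.1) with and without quality weights, other scalings and filters, the replicate block and each library left out; leaving out the 2 libraries highest in testis transcripts (WT replicate 2 and EKO replicate 3) was added after seeing the data. All 29 members are named; of each related list the 2 genes with the smallest p. Members and lists were chosen with earlier results of these data known.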

Additional observations from a re-analysis of the deposited data

How the results depend on the processing

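The number of genes called by edgeR was 0 at an adjusted p of 0.05 (5264 at an unadjusted p under 0.05) and 3560 at 0.10, with 0 and 13 of the 29 members. DESeq2 called 3392 genes and 11 members; limma-voom with quality weights called 4101 genes and 15 members, and limma-voom without them 0. With quality weights 8 members were lower at an unadjusted p under 0.05, against 17.1% of all tested genes, and the median of the enzymes after squalene was 0.085. With each library left out in turn, edgeR called 0 to 443 genes and 0 to 3 members, and 3 to 8 members were lower at an unadjusted p under 0.05: 3 without EKO replicate 2, EKO replicate 3 or WT replicate 1, and 8 without WT replicate 2. Over all tested genes, 9.55% were lower without EKO replicate 2 and 11% without EKO replicate 3. The share was 9.39% without WT replicate 1 and 12.9% without WT replicate 2.

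Small differences changed sign. Nsdhl was at -0.017 with library totals, -0.014 with upper-quartile factors, -0.16 with quality weights and -0.0082 without the 2 libraries highest in testis transcripts (WT replicate 2 and EKO replicate 3). Tm7sf2 was at -0.075 and Npc2 at -0.081 with quality weights, and Npc2 at -0.099 without those 2 libraries. With each library left out in turn, Nsdhl ranged from -0.084 to 0.32, Npc2 from -0.12 to 0.33, Idi1 from -0.14 to 0.45 and Lss from -0.32 to 0.0100. The cause was not tested. The other 24 members kept their direction in all 16 alternatives.

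With the replicate number as a block, edgeR called 0 genes and 0 members, and 7 members were higher and 5 lower at an unadjusted p under 0.05. In that setting 15% of all tested genes were higher and 11.5% lower. Same-numbered libraries deviated together for replicate 1 alone (r = 0.272, against -0.312 and -0.355 for replicates 2 and 3). The highest value was between EKO replicate 3 and WT replicate 2 (r = 0.454), the 2 libraries highest in testis transcripts. Each genotype was centred on its own 3 libraries, which ties these values to each other. They therefore cannot show whether the numbers pair the samples. Below 0.154 to 0.192 CPM, the level of 3 counts, a gene was not detectable at this depth.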
